A study of Mus musculus with 4 samples.

Results

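The 10 genes described here are Acta2, Actg2, Myh11, Mylk, Cnn1, Tagln, Smtn, Lmod1, Oxtr and Trp63, which mark myoepithelial and smooth muscle cells. They were chosen by name, and every non-control probe of the array that carried a member's gene symbol was taken. All 10 had a probe and all 10 were tested, among 22312 genes tested in all, and the skeletal muscle genes Myh4 and Tnnc2 served as contrast. Expression was measured in salivary glands (SGs) of female C57/BL6 mice at 10 weeks of age, with 2 arrays labelled Myd88-KO (Myd88-null) and 2 labelled Wildtype. The mice lacked Myd88, the adaptor of most Toll-like receptors and of the interleukin-1 receptor, in every cell and were compared with wild-type offspring of heterozygous parents. The labels name the submandibular gland (SMG) together with the sublingual gland (SLG), dissected to remove lymph nodes, connective tissue and fat, while the methods name whole SMGs. Nothing in the labels says how many mice stand behind 1 array, so the p-values measure only the spread between these arrays.

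Myoepithelial cells are flat, branched epithelial cells that lie between the basement membrane and the acini or intercalated ducts of SGs. They contract and help to press saliva out of the acini. They carry basal keratins and the transcription factor p63 like other basal epithelial cells, and at the same time the actin, myosin and actin-binding proteins of smooth muscle. Smooth muscle cells of arteries and pericytes make most of the same proteins, so none of these genes except Trp63 separates myoepithelium from vessel walls in RNA of a whole gland. Skeletal muscle uses other actin, myosin and troponin genes. In bulk tissue, fewer cells of a type and less RNA per cell cannot be told apart.

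Levels are the log2 processed signal of a probe minus the 75th percentile of its array, so that 0 stands for a signal equal to that percentile. Levels of different probes are not set against each other, because probes bind with different strength. The 75th percentile itself was 256 and 237 on Myd88-KO arrays 1 and 2, and 321 and 269 on Wildtype arrays 1 and 2. The share of probes well above background ranged from 52.2% to 74.2% over the 4 arrays. All 10 acinar and all 10 duct marker genes were well above background on all 4 arrays. The Myd88 probe read 1.51 and 1.41 on the Myd88-KO arrays and 1.15 and 1.07 on the Wildtype arrays, and was thus not lower in the arrays labelled as knockout. Whether this probe lies in the deleted part of the gene is not given in the sources used here, so it does not check the labels.

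The members were read by 15 probes, 13 of which were well above background on all 4 arrays. Of the members, 7 had 1 probe and 3 had several. The probes below, written 5′ to 3′ with positions in mm9 as the array files give them, show which stretch of an actin or myosin member, and of its skeletal muscle relative, was read. Of some probes only the first 30 of 60 bases are given, and their place in exons or untranslated regions was not checked.
Acta2, chr19:34316060-34316119, minus strand, first 30 bases: gttttgtggatcagcgcctccagttccttt
Actg2, chr6:83462904-83462963, minus strand, first 30 bases: tctggggatccccacaagactgctgtcacc
Acta1, chr8:126416197-126416256, minus strand, 60 bases of coding sequence: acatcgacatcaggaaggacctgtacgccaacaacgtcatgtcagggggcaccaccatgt
Myh11, chr16:14202190-14202249, minus strand, 60 bases of coding sequence: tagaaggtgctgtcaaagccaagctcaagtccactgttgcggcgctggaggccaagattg
Myh4, chr11:67073834-67073893, plus strand, first 30 bases: gaagaataatccatctttctgttgagaggt
The probes were placed at different stretches of their genes. Since the actin proteins are nearly identical, the coding Acta1 probe may share bases with other actin transcripts, and whether it binds them was not tested.

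None of the 10 members passed the adjusted threshold of 0.05, where 0 of 22312 genes did (0%). None had an unadjusted limma p under 0.05 either, whereas 16.7% of all genes tested did, 9.82% with a higher and 6.83% with a lower level in the Myd88-KO arrays. Of the members, 5 were higher and 5 lower in the Myd88-KO arrays. Lmod1, among the 5 lower, was tested only because it was well above background on both Wildtype arrays. A lower Myd88-KO level was thus partly built into its choice. Of all 22312 genes tested, 13295 were higher and 9017 lower, and the counts of the lists below stand beside these. The members' median difference was 0.01 on the log2 scale, beside a median of 0.06 over all genes tested. The median size of the difference regardless of sign was 0.20 for the members and 0.20 for all genes. By the probe that stands for the gene, no member differed by more than 2-fold, as 4.79% of all genes did.

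**Figure D1:**
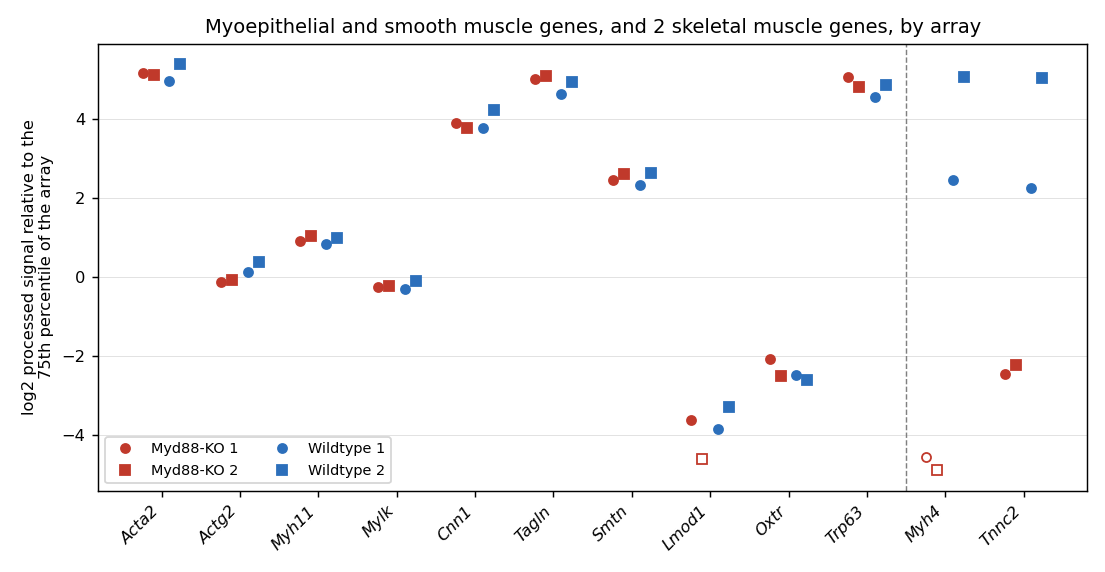
Level of each of the 10 members and of Myh4 and Tnnc2 on each array, as log2 processed signal relative to the 75th percentile of the array. Red stands for Myd88-KO and blue for Wildtype, circles for array 1 and squares for array 2, and open symbols for probes not well above background. The 4 symbols of a member other than Lmod1 lie within 0.54 of each other, whereas both Wildtype symbols of Myh4 and Tnnc2 lie above both Myd88-KO symbols.

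The actin genes of smooth muscle come first. Acta2 encodes smooth muscle α-actin, the usual stain for myoepithelial cells, and read 5.19 and 5.12 on Myd88-KO arrays 1 and 2, and 4.98 and 5.40 on Wildtype arrays 1 and 2. The Wildtype arrays lay on either side of the Myd88-KO arrays. Its difference, Myd88-KO minus Wildtype, was -0.03 ± 0.18 (SE) with a 95% interval from -0.55 to 0.49, or from 0.683-fold to 1.40-fold (limma, adjusted p = 0.949). The probe was spotted 10 times on each array, and the SD between its spots on 1 array was at most 0.054 on the log2 scale. This covers the spots of 1 hybridization only, and the Wildtype arrays lay 0.42 apart.

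Actg2 encodes the γ-actin of visceral smooth muscle. It read -0.11 and -0.06 on the Myd88-KO arrays and 0.12 and 0.39 on the Wildtype arrays. Both Myd88-KO arrays lay below both Wildtype arrays, which holds for 1 other member in the opposite direction and, in either direction, for 52% of all genes tested. The difference was -0.34 ± 0.14 (SE), with a 95% interval from -0.73 to 0.05 (limma, adjusted p = 0.337). The point estimate corresponds to 0.79-fold.

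The motor of smooth muscle is formed by myosin heavy chain 11, encoded by Myh11, and is switched on when myosin light chain kinase, encoded by Mylk, phosphorylates its light chain. Myh11 read 0.93 and 1.04 on the Myd88-KO arrays and 0.85 and 1.01 on the Wildtype arrays. The groups overlapped, and Myh11 had the narrowest spread of the members, 0.19 from the lowest to the highest array. The difference was 0.05, with a 95% interval from -0.28 to 0.39, which bounds it between 0.822-fold and 1.31-fold. Mylk was read by 2 probes. The brighter probe read -0.26 and -0.23 on the Myd88-KO arrays and -0.30 and -0.08 on the Wildtype arrays. The other probe, designed on an Ensembl transcript, read -2.08 and -1.78 on the Myd88-KO arrays and -1.74 and -2.26 on the Wildtype arrays. Neither probe separated the groups. The brighter probe differed by -0.05 (95% interval from -0.41 to 0.30).

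Calponin 1 (Cnn1), transgelin (Tagln), smoothelin (Smtn) and leiomodin 1 (Lmod1) bind or nucleate actin filaments and mark contractile smooth muscle. Cnn1 read 3.90 and 3.78 on the Myd88-KO arrays and 3.78 and 4.23 on the Wildtype arrays. Here too Wildtype array 2 stood highest and the other 3 arrays lay together. The difference was -0.17 (95% interval from -0.72 to 0.39). Tagln read 5.03 and 5.09 on the Myd88-KO arrays and 4.64 and 4.96 on the Wildtype arrays. It was the one member with both Myd88-KO arrays above both Wildtype arrays, by a gap that was smaller than the distance between the Wildtype arrays. The difference of Tagln was 0.26 ± 0.15 (SE), with a 95% interval from -0.17 to 0.69 (limma, adjusted p = 0.457).

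Smtn was read by 2 probes at different places of the gene. The brighter probe read 2.46 and 2.61 on the Myd88-KO arrays and 2.34 and 2.63 on the Wildtype arrays, a difference of 0.04 (95% interval from -0.39 to 0.48). The dimmer probe covered coding sequence at chr11:3420834-3420893 on the minus strand.
Smtn, dimmer probe, 60 bases: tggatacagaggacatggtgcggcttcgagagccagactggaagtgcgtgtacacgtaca
It read -0.29 and 0.09 on the Myd88-KO arrays and -0.12 and -0.09 on the Wildtype arrays. On both probes the groups overlapped, and the group means differed by under 0.05. Lmod1 was close to background. It read -3.61 and -4.60 on the Myd88-KO arrays and -3.85 and -3.30 on the Wildtype arrays, and was not well above background on Myd88-KO array 2. The difference of -0.54 had a 95% interval from -1.75 to 0.68, the widest of the members, so that neither a 3-fold lower nor a 1.5-fold higher level lies outside it.

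Oxtr encodes the oxytocin receptor, through which oxytocin contracts myoepithelial cells of the mammary gland and smooth muscle of the uterus. It was dim but well above background on all 4 arrays. Oxtr read -2.07 and -2.51 on the Myd88-KO arrays and -2.49 and -2.61 on the Wildtype arrays. Myd88-KO array 1 stood apart from the other 3, and the groups overlapped by the margin between Myd88-KO array 2 and Wildtype array 1. The difference was 0.26 (95% interval from -0.29 to 0.80).

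Trp63 encodes p63, the transcription factor that maintains basal and myoepithelial cells. It was read by 4 probes, which did not go the same way. The probe that stands for the gene, because it was the brightest, contains a run of CAG triplets (capitals), and a second RefSeq probe and probes on 2 cDNA clones lie elsewhere in the gene. The CAG-run probe is printed whole and the other 3 by their first 30 bases.
Trp63, CAG-run probe, chr16:25871159-25871218, plus strand: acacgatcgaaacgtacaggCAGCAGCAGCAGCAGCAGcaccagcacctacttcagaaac
Trp63, second RefSeq probe, chr16:25892012-25892071, plus strand: caaaaggtactttcttatagacatgatact
Trp63, clone A, chr16:25821344-25821403, plus strand: acttaccatgtgtcctggctatagcttttc
Trp63, clone B, chr16:25867718-25867777, plus strand: cagtcccatataccatgcacttaactcttt
The capitals mark 6 CAG triplets in a row. Of 55681 probes on the array, 6 hold at least 6 CAG or CTG triplets in a row, this probe included. Whether such a run binds transcripts of other genes was not tested.

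The CAG-run probe read 5.07 and 4.83 on the Myd88-KO arrays and 4.56 and 4.87 on the Wildtype arrays. The groups overlapped, with a difference of 0.23 (95% interval from -0.25 to 0.72). The second RefSeq probe read 0.04 and -0.54 on the Myd88-KO arrays and 0.16 and 0.18 on the Wildtype arrays. On this probe both Myd88-KO arrays were lower, by 0.42 in the means, and with it in place of the CAG-run probe the adjusted limma p of Trp63 was 0.445. Clone A read -0.83 and -0.65 on the Myd88-KO arrays and -0.53 and -0.35 on the Wildtype arrays, lower by 0.30 in the means. Clone B read -3.27 and -3.75 on the Myd88-KO arrays and -4.23 and -4.81 on the Wildtype arrays, and was not well above background on Wildtype array 2. Its means differed by 1.01, the furthest of the member probes and over 2-fold, and the groups did not overlap. Thus 2 of the 4 probes were higher and 2 lower in the Myd88-KO arrays, and the direction of Trp63 depends on the probe.

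**Figure D2:**
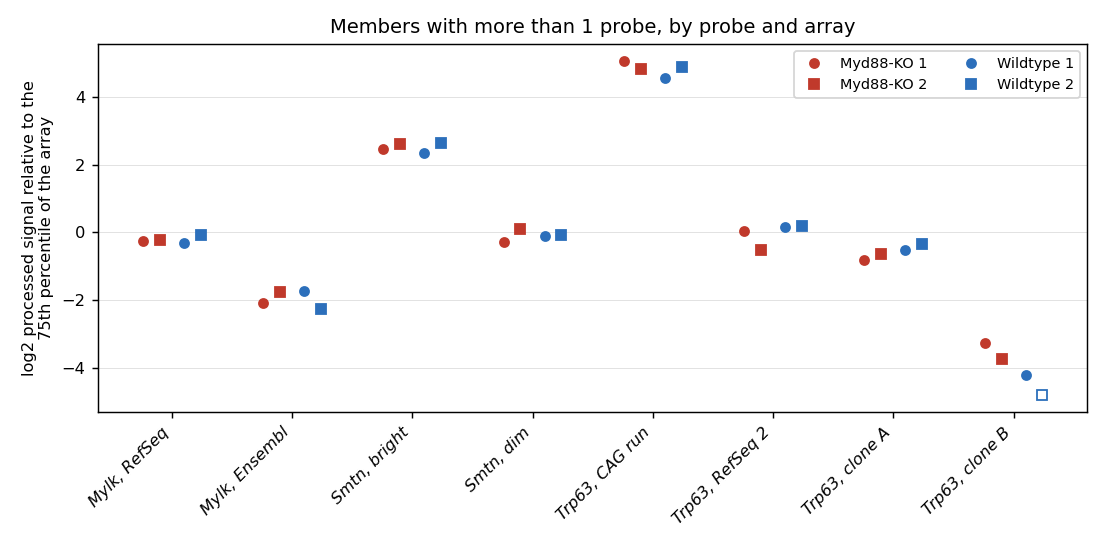
Levels of the 3 members with more than 1 probe, by probe and array, as log2 processed signal relative to the 75th percentile of the array (symbols as in the plot of the members by array). The Mylk and Smtn probes overlap between the groups, whereas the Trp63 probes differ in direction.

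The levels of the skeletal muscle genes lay far apart between the groups, those of the members did not. Myh4 encodes the myosin heavy chain of fast IIb fibres. It read -4.55 and -4.89 on the Myd88-KO arrays and 2.47 and 5.06 on the Wildtype arrays, and was not well above background on either Myd88-KO array. Its measured difference was the lowest of all 22312 genes tested. Counted against the lowest signals well above background, Myh4 was at least 218-fold lower in the Myd88-KO arrays (limma, adjusted p = 0.194), a limit that was 88.6-fold without Wildtype array 2 and 535-fold without Wildtype array 1. Tnnc2 encodes the troponin C of fast fibres. It read -2.44 and -2.23 on the Myd88-KO arrays and 2.26 and 5.04 on the Wildtype arrays. The difference of Tnnc2 was -5.99 (95% interval from -8.90 to -3.07), or 63.4-fold lower, with an adjusted limma p of 0.200. Without Wildtype array 2 it was 24.2-fold lower, and without Wildtype array 1 166-fold. Neither gene passed the adjusted threshold.

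On each array, the mean log2 level of the 10 members was 1.65 and 1.51 on the Myd88-KO arrays and 1.46 and 1.75 on the Wildtype arrays. The mean of Myh4 and Tnnc2 was -3.49 and -3.56 on the Myd88-KO arrays and 2.37 and 5.05 on the Wildtype arrays. The group difference was -0.03 for the members' mean and -7.24 for the mean of Myh4 and Tnnc2, a gap of 7.21. Myh4 enters with its measured level, which was not well above background on the Myd88-KO arrays. With Myh4 at its limit the gap was 6.85, and with Tnnc2 alone 5.96. By the probe that stands for the gene, the 95% intervals of single members other than Lmod1 ran from 0.603-fold at the lowest bound to 1.75-fold at the highest. The other Trp63 probes are left out of this range. Among them clone B differed by 1.01 on the log2 scale and 2 were lower. The gap is given without a test, as a description.

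**Figure D3:**
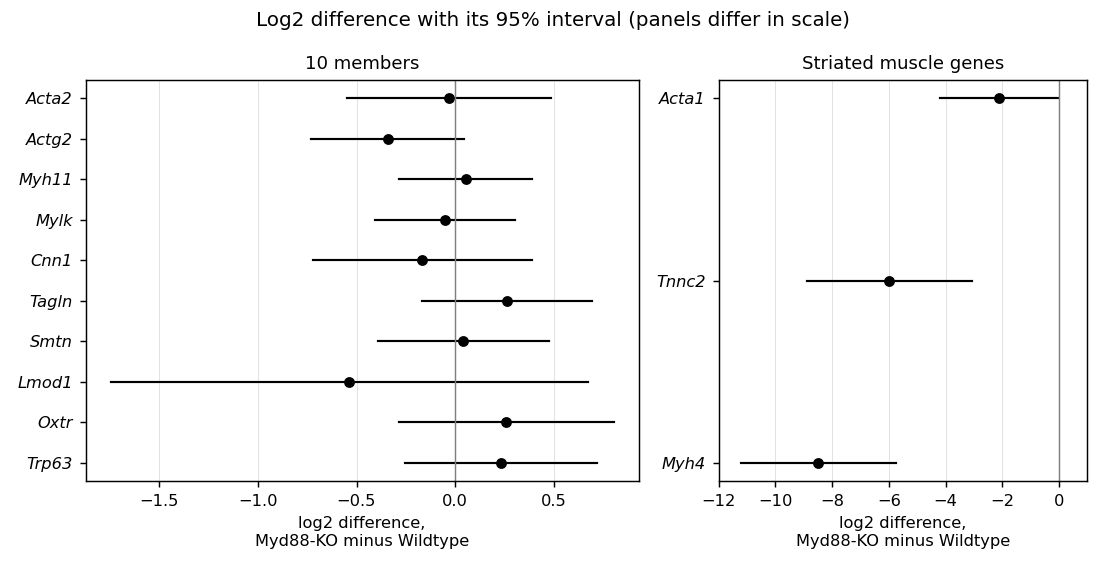
Log2 difference, Myd88-KO minus Wildtype, of the 10 members (left) and of Acta1, Tnnc2 and Myh4 (right). Points are limma estimates and lines their 95% intervals, and the panels differ in scale. Every member's interval, by the probe that stands for the gene, spans 0, whereas the intervals of Tnnc2 and Myh4 end at -3.07 and -5.74. Myh4 was not well above background on either Myd88-KO array, so its point and interval rest on background signals there.

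The skeletal muscle genes differed within the Wildtype group as well, and the members shifted in the same direction there by far less. Myh4 was higher by 2.60 on Wildtype array 2 than on array 1, and Tnnc2 by 2.78. Of the members, 9 of 10 were higher on Wildtype array 2 than on array 1, with a median gap of 0.30, while over all genes tested 50.1% were. The exception among the members was Oxtr. The shift was not particular to the members. Of 32 other genes of smooth muscle contraction, 25 were higher on Wildtype array 2, with a median gap of 0.12. Between the Myd88-KO arrays 5 of 10 members were higher on array 2, with a median gap of -0.02, whereas 17 of 22 skeletal muscle genes were, with a median gap of 0.72. Over all genes tested 50.4% were. Only 9 of the 22 skeletal muscle genes were well above background on both Myd88-KO arrays, so their gap there rests partly on background signals. Of 22 skeletal muscle genes tested, 20 were higher on Wildtype array 2, with a median gap of 1.96. Of the members, 6 had their highest level on Wildtype array 2 and 7 their lowest on Wildtype array 1. The Wildtype arrays also differed in the share of probes well above background. Whether that share or skeletal muscle in the sample had a part in the levels of the members was not tested.

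The actins of striated muscle stand beside those of smooth muscle in the same gene family. Acta1, the α-actin of skeletal muscle, read 0.73 and 0.65 on the Myd88-KO arrays and 1.80 and 3.79 on the Wildtype arrays, a difference of -2.11 (95% interval from -4.20 to -0.02). Actc1, the α-actin of heart, was not well above background on either Myd88-KO array and was at least 2.49-fold lower there, a limit that rests on Wildtype array 2, since without it none above 1.00-fold could be given. Desmin (Des), an intermediate filament of all muscle types, read -3.41 and -1.82 on the Myd88-KO arrays and -1.19 and -1.28 on the Wildtype arrays. The 95% interval of Des ran from -3.06 to 0.30.

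Other genes of smooth muscle contraction were spread around 0. Of 38 listed, 32 were tested, 14 were higher and 18 lower in the Myd88-KO arrays, and their median difference was -0.03. An unadjusted limma p under 0.05 was reached by 10 of the 32, 5 in each direction, beside 9.82% (higher) and 6.83% (lower) of all genes tested, and the adjusted threshold by 0. Myl9, the regulatory light chain of smooth muscle myosin, read 5.003 and 4.94 on the Myd88-KO arrays and 4.98 and 5.39 on the Wildtype arrays. As for Acta2 and Cnn1, Wildtype array 2 was highest and the groups overlapped. Tpm2, a tropomyosin, differed by 0.05 (95% interval from -0.55 to 0.66). Caldesmon (Cald1), which restrains actin and myosin, read 0.73 and 0.74 on the Myd88-KO arrays and 0.26 and 0.44 on the Wildtype arrays. The lowest difference after that of Des was -0.90 for Pgm5, a protein of muscle adhesion sites, and the highest were 0.49 for Ppp1r12b, a subunit of myosin phosphatase, and 0.45 for Tagln2, the transgelin of many cell types.

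Smooth muscle genes are switched on by serum response factor (SRF) with its partners of the myocardin family, which bind DNA together. Of the 14 regulators listed, 9 were tested, 3 were higher and 6 lower, and none had an unadjusted limma p under 0.05. Of the 9, 2 were tested only because they were well above background on both Wildtype arrays. A lower Myd88-KO level was partly built into their choice. Srf read 0.85 and 0.75 on the Myd88-KO arrays and 0.72 and 0.95 on the Wildtype arrays, a difference of -0.04 (95% interval from -0.41 to 0.34). Mkl1 and Mkl2, the myocardin-related factors, differed by -0.09 and -0.05. Myocd itself was not well above background on any array. Klf4, which represses smooth muscle genes, differed by -0.33, with an interval from -0.69 to 0.03. Elk1 and Elk4, which compete with myocardin for SRF, both differed by 0.18, and the dim Nkx3-2 by -0.36 with an interval from -4.16 to 3.45.

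Genes of basal and myoepithelial cells outside the contractile set were also divided. Of 26 listed, 24 were tested, 11 were higher and 13 lower, with a median difference of -0.01. Among the 24, 6 had an unadjusted limma p under 0.05, 3 in each direction. Over all genes tested the shares were 9.82% (higher) and 6.83% (lower). Krt14, a keratin of myoepithelial and basal duct cells, read 1.23 and 1.06 on the Myd88-KO arrays and 1.04 and 1.40 on the Wildtype arrays. Its partner Krt5 read 2.57 and 2.46 on the Myd88-KO arrays and 2.64 and 2.93 on the Wildtype arrays. Krt14 overlapped between the groups, whereas Krt5 was lower on both Myd88-KO arrays by 0.27 in the means (95% interval from -0.69 to 0.15). The lowest differences were -1.01 for Igfbp5, an insulin-like growth factor binding protein, and -0.93 for the basal keratin Krt15. The highest were 0.43 for Perp, a p63 target of desmosomes, and 0.36 for Sfn.

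Myoepithelial cells and vessels contract through receptors coupled to calcium release. Of 26 receptors and signalling genes listed, 18 were tested, 12 were higher and 6 lower, and 3 had an unadjusted limma p under 0.05, a share equal to the 16.7% of all genes tested. Of the 18, 1 was tested only because it was well above background on both Wildtype arrays. Chrm3, the muscarinic receptor that drives salivation, read 0.93 and 0.71 on the Myd88-KO arrays and 0.37 and 0.47 on the Wildtype arrays. Its difference was 0.40 (95% interval from 0.03 to 0.78, limma, adjusted p = 0.283). Chrm1, the other muscarinic receptor of SGs, differed by 0.49 with overlapping groups. Plcb1, a phospholipase C downstream of such receptors, differed by -0.79 (95% interval from -1.13 to -0.44, limma, adjusted p = 0.195). The thromboxane receptor gene Tbxa2r differed by -1.01, with an interval from -2.83 to 0.82.

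**Figure D4:**
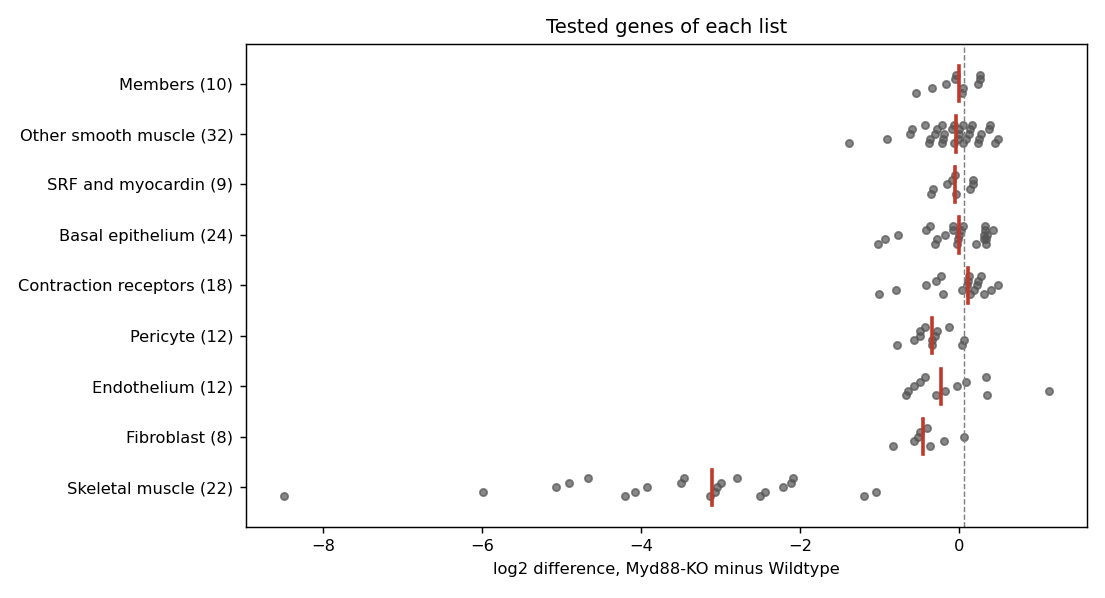
Log2 difference, Myd88-KO minus Wildtype, of each tested gene of 9 lists, with the number of tested genes in brackets, the list's median as a red bar and the median of all genes tested as a dashed line. The members, with a median of 0.01, lie beside the dashed line, and the skeletal muscle genes, with a median of -3.10, do not. Of the 22 skeletal muscle genes, 13 were tested only because they were well above background on both Wildtype arrays. Their low values, and so that median, are partly set by this choice.

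Vessel and stroma genes are given beside the members because vessel walls also express them. Of 12 pericyte genes, 10 were lower in the Myd88-KO arrays, with a median of -0.34. Among the 12, 2 had an unadjusted limma p under 0.05, both lower, beside 6.83% (lower) of all genes tested. The groups did not overlap for 7 of the 12, all lower, beside 4181 lower of 22312 genes tested. Vtn differed by -0.78 and Cspg4 by -0.56 at the low end, and Mcam by 0.07 and Kcnj8 by 0.04 at the high end. The summed signal of the 12, relative to the 75th percentile of each array, was 47.5 and 49.6 in the Myd88-KO arrays and 47.6 to 50.2 in the Wildtype arrays. These sums overlapped but rest mostly on the bright Mcam probe. The mean log2 level of the 12 genes did not overlap, at -0.54 and -0.36 in the Myd88-KO arrays and -0.19 and -0.04 in the Wildtype arrays. Of 12 endothelial genes, 8 were lower, with a median of -0.23, from -0.66 for Cldn5 and -0.64 for Cdh5 to 0.36 for Emcn and 1.13 for Tek, a gene whose groups overlapped. Among the 12 endothelial genes, 5 had an unadjusted limma p under 0.05, 1 higher and 4 lower. Of 8 fibroblast genes, 7 were lower, with a median of -0.45, led by Lum at -0.83 and Col1a1 at -0.56, and with Dcn at 0.07 as the exception. Among the 8, 4 had an unadjusted limma p under 0.05, all lower. Over all genes tested these shares were 9.82% (higher) and 6.83% (lower).

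Of 7 adipocyte genes, 7 were lower, with a median of -0.84, led by Pck1 at -1.32 and Plin1 at -1.09. Among the 7, 3 had an unadjusted limma p under 0.05, beside 6.83% (lower) of all genes tested. Of 22 skeletal muscle genes, 22 were lower and 18 had an unadjusted limma p under 0.05, beside 6.83% (lower) of all genes tested. Myh4 and Tnnc2 were among the 18. Of the 22, 13, Myh4 among them, were tested only because they were well above background on both Wildtype arrays. A lower Myd88-KO level was thus built into their choice, and both counts are partly set by it. The other 9, Tnnc2 among them, were well above background on all 4 arrays. The summed signal of those 22 was 4.46 to 5.47 in the Myd88-KO arrays and 30.9 to 160 in the Wildtype arrays. Of 6 heart muscle genes, 3 were higher and 3 lower, among them Nppa at 0.47, Tnnt2 at 0.46, Actc1 as given above and Myh6 at -0.64 with overlapping groups. Actc1 and Myh6, 2 of the 3 lower, were tested only because they were well above background on both Wildtype arrays. That choice partly set the count of lower heart muscle genes. Of 8 Schwann cell genes, 5 were lower, with S100b at -1.47 and Prx at -0.42, while Erbb3 at 0.31 and Cdh19 at 0.26 overlapped between the groups. Cdh19 was likewise tested only through the Wildtype arrays. The unadjusted limma p was under 0.05 for 2 heart muscle genes, 1 in each direction, and for 1 Schwann cell gene, which was lower.

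Markers of the gland epithelium itself were measured as well. Of 10 acinar genes, 8 were higher, with Lpo at 0.44 and Slc12a2 at 0.42, while Smr3a differed by -1.86 and Muc19 by -0.13. Of 10 duct genes, 5 were higher, with Krt8 at 0.68 and Ascl3 at 0.57, and 5 lower, with Krt19 at -0.28. The unadjusted limma p was under 0.05 for 6 acinar genes, 5 higher and 1 lower, and for 4 duct genes, all higher. Over all genes tested the shares were 9.82% (higher) and 6.83% (lower). None of the genes in these lists passed the adjusted threshold. The summed signal of the 10 members was 121 to 127 in the Myd88-KO arrays and 103 to 132 in the Wildtype arrays, so that the members' sums, which rest mostly on the bright Acta2, Tagln and Trp63 probes, overlapped. Whether different amounts of muscle, fat, stroma or vessels in the samples had a part in the members' values was not tested.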

How the data were processed

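Total RNA of SGs (100 ng a sample) was labelled with Cy3 and hybridized to 1-colour Agilent arrays for 17 h at 65 °C. The scanner files deposited by the authors came from Feature Extraction 10.7.3.1, whose processed intensity is corrected for background and spatial trends but not normalized between arrays. A processed table was left out because its 4 value columns matched no sample label. The paper's legends give n = 3, against 2 arrays a label here.

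Signals of 59305 non-control spots were put on the log2 scale and centred on the 75th percentile of their array. Outlier spots (99 to 131 an array) were dropped and spots of a probe averaged. A probe entered the test when over a share of 0.5 of its spots were well above background on both arrays of a group, and each gene was represented by its brightest such probe. limma 3.58.1 (R 4.3.3) compared the groups, with p-values adjusted by Benjamini-Hochberg over 22312 genes at a threshold of 0.05. Differences are Myd88-KO minus Wildtype. The procedure was checked on simulated data.

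The members and all gene lists were chosen with earlier results of these data known. Genes named are the members, Myh4, Tnnc2, Myd88, 10 textbook partners and the 2 largest positive and 2 largest negative differences of each list (fewer where fewer had that sign), apart from 1 duct gene that is not reported here. Mkl1 and Mkl2 were added after their values were seen. Of the 14 listed SRF regulators, Mrtfa, Mrtfb and Hrt2 are other names that the array does not use. The alternatives were 15 planned and 6 added after seeing the data. All 10 members had a name in a RefSeq gene table of another build, used for names only.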

Additional observations from a re-analysis of the deposited data

How the results depend on the processing

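No member passed the adjusted threshold under any of 19 alternatives that tested it (Lmod1 was not tested under the stricter filter), and the lowest adjusted p of a member was 0.235. Over all members and alternatives, 171 differences kept their direction and 18 reversed. Alternatives that changed only the test, the filter or the probe of another gene left a member's difference as it was. They count as kept although they could not reverse it, so the 171 do not measure robustness. Actg2, Tagln and Oxtr kept their direction in all 19, these alternatives included. The reversed differences were 0.077 for Lmod1 and -0.0214 for Smtn with normexp, -0.0103 for Smtn with quantile normalization, -0.00358 for Myh11 and -0.0146 for Smtn with the 75th percentile over detected probes, 0.00881 for Mylk with the mean of its probes, -0.00514 for Myh11 and -0.0162 for Smtn with median scaling, -0.0058 for Myh11 and -0.0372 for Smtn with cyclic loess, and -0.42 for Trp63 by its second RefSeq probe. With single arrays left out, the range was -0.241 to 0.178 for Acta2, -0.39 to 0.0591 for Cnn1 and -0.161 to 0.0563 for Mylk, each reversed without Wildtype replicate 2. It was -0.0238 to 0.131 for Myh11 and -0.102 to 0.187 for Smtn, each reversed without Wildtype replicate 1 and without Myd88-KO replicate 2. The cause was not tested.

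The members' median difference ran from -0.13 without Wildtype replicate 1 to 0.15 without Wildtype replicate 2. The gap between the members and Myh4 with Tnnc2 was 5.29 with normexp and ran from 6.01 without Wildtype replicate 2 to 8.41 without Wildtype replicate 1. It was 5.96 with Tnnc2 alone. Over the alternatives the log2 difference of Myh4 ran from -9.78 to -5.69, and that of Tnnc2 from -7.38 to -4.60. The number of members with an unadjusted p under 0.05 was 1 with normexp, the 75th percentile over detected probes, trended and robust moderation, cyclic loess and crossed pairs, and ran from 0 to 1 when single arrays were left out. The gene was Actg2 in 5 of these settings (one of them without Wildtype replicate 1) and Lmod1 in 2 (crossed pairs, and without Myd88-KO replicate 1).

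Genes called over the whole array were 79 with normexp, 482 with trended and robust moderation, 1 with the methods' t-test on log2 values, 1 on linear values and 359 with median scaling, against 0. With trended and robust moderation Myh4 passed (adjusted p = 0.049), and with median scaling Myh4 and Tnnc2 did. Median scaling gave 897 genes an unadjusted limma p under 0.05, against 3715. Its p-values were thus distributed unlike those of the main fit, and the cause was not tested. With the replicate number as a block, 0 members and 0 genes were called, and the unadjusted p was under 0.05 for 2410 genes, against 3715. Same-numbered arrays deviated in opposite directions over genes (r = -0.37). With 2 arrays a group this cannot tell whether the numbers pair the arrays. Crossed pairs as a block, added after seeing the data, called 0 genes. Signal over background limits Lmod1, and 2 arrays a group limit every interval.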
